A study of Mus musculus with 6 samples.

Results

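The genes described here are those whose level was higher under both ways of lowering Notch activity in Beko cells, a leukaemic mouse cell line of the T lineage. They were chosen by measured values: the highest of the 6 arrays had to reach a log2 level of 5.54, and both the DAPT minus DMSO difference and the DNMAML-ER OHT minus ethanol difference had to be at least 0.58, which is 1.49-fold. Of 22414 genes in the deposited table, 12145 reached that floor and 167 met both differences. The choosing rule leaves out Ccr9, a chemokine receptor gene, which left 166 genes. The third pair of arrays, Notch1-ER with OHT and with ethanol, took no part in either difference, and it is where the 166 genes were read. Its arrays entered the choice through the floor alone, and it supplied the highest array for 1 of the 166 genes.

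Notch receptors are cut by γ-secretase after ligand binding, which frees an intracellular part that enters the nucleus, joins the DNA-binding protein RBPJ and recruits a Mastermind co-activator. Notch1 signalling drives commitment to the T lineage in the thymus and is often over-active in T-lineage leukaemia. The Notch complex mostly activates transcription, and some of its targets, such as genes of the Hes family, encode repressors.

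There was 1 array for each of 6 conditions, from labelled total RNA. Parental Beko cells received DAPT, a γ-secretase inhibitor, at 10 μM for 24 h, or DMSO for 24 h. γ-secretase also cuts proteins other than Notch. Beko cells carrying DNMAML-ER, a dominant-negative Mastermind joined to an oestrogen receptor part, received OHT, a tamoxifen metabolite that switches such fusions on, at 0.75 μg/mL for 48 h, or ethanol for 48 h. Beko cells carrying Notch1-ER, in which Notch1 is joined to the same kind of switch, received OHT at 0.75 μg/mL for 48 h, or ethanol for 48 h. Both fusions were introduced by infection followed by selection, and whether a line is 1 clone is not stated in the sources used here. Without a second array in any condition, no difference below has a replicate error or a test. The sizes are descriptions of these 6 arrays.

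The table names each gene by a mouse Ensembl ID, and 0 of the 22414 IDs matched the gene table used as a reference. The genes are therefore given by rank or, for 4 of them, by ID, without symbols, functions, positions or sequences. For the same reason the T-lineage markers of the cells and the levels of Notch1 and of the fusion partners were not analysed here.

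The 166 genes were of middling level. Their level averaged over the 6 arrays had a median of 7.42 on the log2 scale, beside 7.64 over all 12145 genes. Their median was 8.23 on the DAPT array and 7.32 on the DMSO array. It was 7.79 with OHT and 7.01 with ethanol in the DNMAML-ER line. In the Notch1-ER line it was 7.06 with OHT and 7.10 with ethanol, so both Notch1-ER arrays lay beside the vehicle arrays of the other pairs. The inhibitor arrays stand high because the genes were chosen on them.

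**Figure D1:**
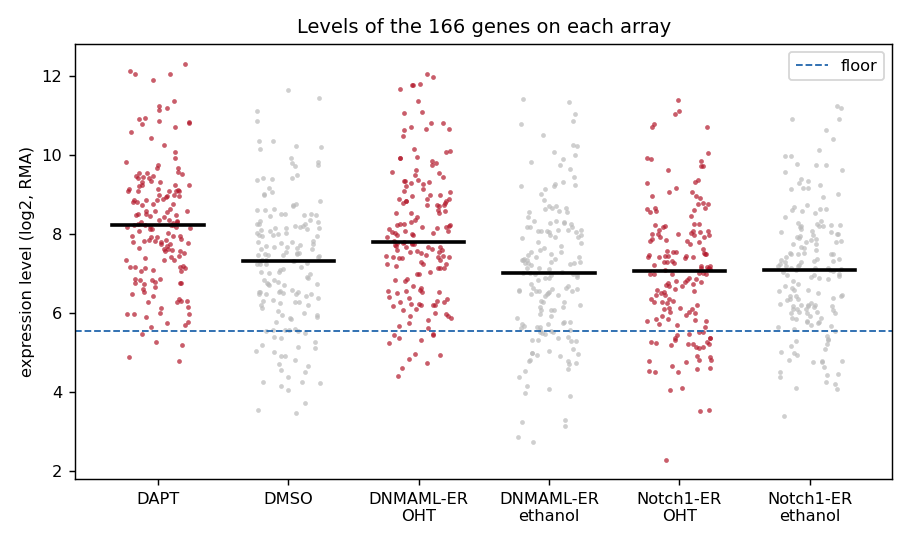
Log2 level of each of the 166 genes (points) on the 6 arrays, with the median as a black bar and the floor as a dashed line. The medians of 8.23 with DAPT and 7.79 with OHT in the DNMAML-ER line stand above the 7.01 to 7.32 of the other 4 arrays.

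Most of these genes reached the floor on every array. All 6 arrays reached it for 123 of them, while 15 reached it on 1 array only. For 19 genes the floor was reached on the DAPT or the DNMAML-ER OHT array and on no other, so these genes passed only where they were high. On the DAPT array 5 genes lay under the floor, against 25 on the DMSO array. With OHT in the DNMAML-ER line 12 lay under it, against 34 with ethanol. With OHT in the Notch1-ER line 35 lay under it, against 25 with ethanol.

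The 2 inhibitor pairs chose the genes, so their sizes are given as a description with nothing read from them. Of the 12145 genes, 5.24% were higher by 0.58 or more with DAPT and 2.46% with OHT in the DNMAML-ER line, and 1.38% were higher in both. Among the 166, the DAPT differences ran from 0.59 to 3.45 with a median of 0.90. The DNMAML-ER differences ran from 0.58 to 2.84 with a median of 0.81. The DAPT difference was the larger in 103 genes and the DNMAML-ER difference in 63. A 2-fold difference, 1 on the log2 scale, was reached in both pairs by 33 genes, where 0.28% of the 12145 genes did so. It was reached with DAPT alone by 32, with DNMAML-ER alone by 14 and in neither pair by 87. The module is thus made mostly of genes with differences under 2-fold in at least 1 pair.

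**Figure D2:**
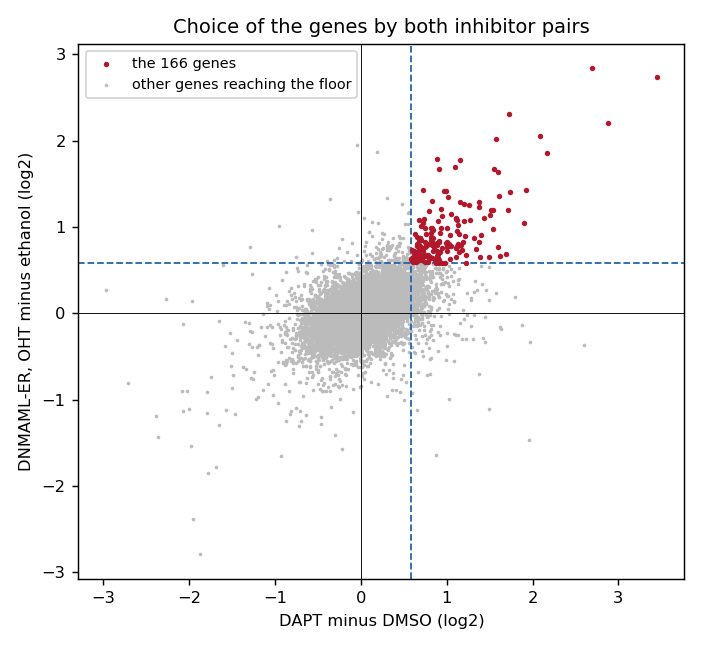
DAPT minus DMSO difference (x, log2) against the DNMAML-ER OHT minus ethanol difference (y, log2), with the 166 genes in red, the other genes that reach the floor in grey, and dashed lines at 0.58. The gene left out by the choosing rule is not drawn. The red points crowd near the lines, and a few reach beyond 2 on both axes.

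The size cut runs through a dense part of the distribution. The 3 genes just inside the size had a smaller inhibitor difference of 0.581, 0.582 and 0.583, and the 3 just outside had 0.5798 each. At the floor, the 3 genes just inside had a highest array of 5.63, 5.64 and 5.70. The 3 genes just outside, which met both differences, had 5.50, 5.32 and 5.27. Genes on either side of the size cut are thus alike in size, while the nearest genes on either side of the floor lay farther apart.

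The inhibitor arrays were the 2 highest of the 6 for 144 of the 166 genes. For these genes both Notch1-ER arrays and all vehicle arrays lay below. The choice already puts each inhibitor array at least 0.58 above its own vehicle array, so much of this separation is built in. The share over all genes that reach the floor was not counted, so nothing is read from the 144. For the other 22 genes, the groups of arrays overlapped. The highest array was DAPT for 125 genes, DNMAML-ER with OHT for 40 and Notch1-ER with ethanol for 1. DAPT and DNMAML-ER cells also differ in the construct they carry, in vehicle and in time, so these ranks mix treatment with line.

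In the Notch1-ER pair the 166 genes showed no common direction. Their median OHT minus ethanol difference was -0.04 on the log2 scale, beside -0.01 over all 12145 genes. It was below 0 for 86 genes (51.8%) and above 0 for 80, where 52.7% of all genes were below 0. As a group, the genes higher under both inhibitors were therefore not lower on the OHT array than on the ethanol array of the Notch1-ER line. How far OHT had switched the fusion on in these cells was not analysed here.

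The differences were wider than those of all genes, in both directions. The size of the difference, without its sign, had a median of 0.25 among the 166 and 0.13 among all genes. The middle 50% of the 166 spanned -0.30 to 0.18, against -0.14 to 0.11 for all genes. Lower by 0.58 or more were 16 of the 166 (9.64%), against 0.815% of all genes. Higher by 0.58 or more were 10 (6.02%), against 1.53%. The remaining 140 lay within 0.58 of 0. At 2-fold, 3 of the 166 were lower, against 0.148% of all genes, and 1 was higher, against 0.379%. In each of the 3 lower genes the Notch1-ER OHT array lay under the floor. Whether this spread exceeds that of repeated arrays of 1 condition cannot be told from these arrays.

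**Figure D3:**
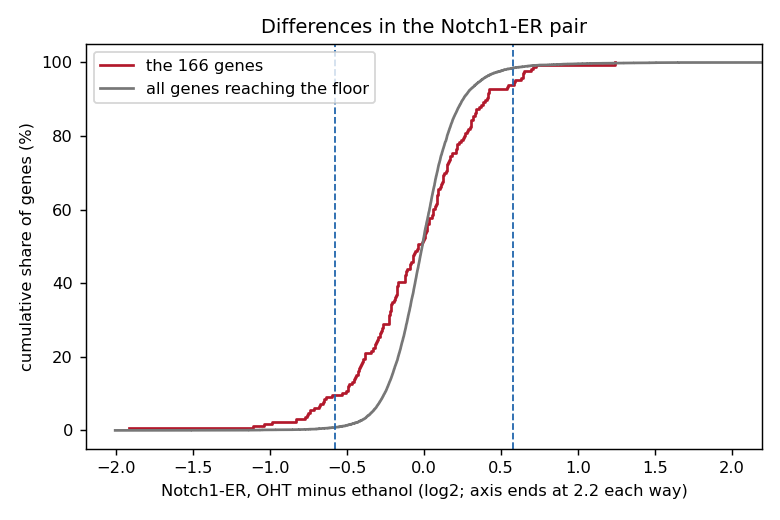
Cumulative share of genes (y, %) by the Notch1-ER OHT minus ethanol difference (x, log2), for the 166 genes in red and for all genes that reach the floor in grey, with dashed lines at 0.58 on either side of 0. The curves cross near 0 and the red one is flatter, with 9.64% of the 166 genes left of the lower line and 6.02% right of the upper one.

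The same counts were taken with the floor set on a mean level. Of the 166 genes, 147 had a mean over the 6 arrays at the floor or above, a mean that the inhibitor arrays raise. Among them 13 (8.84%) were lower by 0.58 or more in the Notch1-ER pair and 8 (5.44%) were higher, against 0.768% and 1.37% of all 11205 genes with such a mean. With the floor on the mean of the 2 Notch1-ER arrays alone, chosen after seeing the data, 138 genes were left. Of these 11 (7.97%) were lower and 8 (5.80%) were higher, against 0.719% and 1.42% of 11263 genes. Of the 28 genes under that mean, 5 (17.9%) were lower and 2 (7.14%) were higher. The share over all genes under that mean was not counted, so nothing is read from these counts. Both Notch1-ER arrays reached the floor in 7 of the 16 lower and 8 of the 10 higher genes.

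Ranked by the smaller of the 2 inhibitor differences, the 15 highest ran from 1.24 to 2.74 in that measure. Their median Notch1-ER difference was -0.38, with 11 below 0 and 4 above. Of the 15, 5 (33.3%) were lower by 0.58 or more and 1 (6.67%) was higher, against 0.815% and 1.53% of all genes. Those 5 were exactly ranks 1 to 5, with Notch1-ER differences from -1.92 to -0.64, while none of ranks 6 to 15 was lower by that size. The break after rank 5 was seen in the data and is given with no test. Of the 15 genes, 7 reached the floor only on an inhibitor array, ranks 1, 4 and 5 among them, and their Notch1-ER differences lie between levels under the floor. The other 8 had a median Notch1-ER difference of -0.40, with 6 below 0, and 2 of them (25%), ranks 2 and 3, were lower by 0.58 or more. At rank 2 both Notch1-ER arrays also lay under the floor, which that gene reached on the DMSO array. Among the 161 genes from rank 6 on, the median was -0.01, with 11 (6.83%) lower and 10 (6.21%) higher by 0.58 or more.

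**Figure D4:**
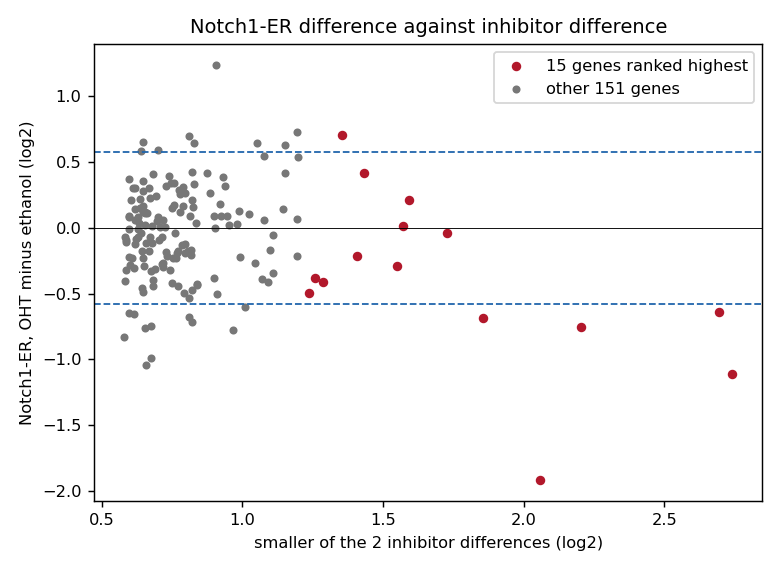
Notch1-ER OHT minus ethanol difference (y, log2) against the smaller of the 2 inhibitor differences (x, log2), with the 15 genes ranked highest in red and the other 151 in grey, and dashed lines at 0.58 on either side of 0. The 5 points farthest right all lie below the lower line, but only 1 of them, rank 3, had Notch1-ER levels at or above the floor. The grey points spread to both sides of 0.

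Rank 1 was ENSMUSG00000076870. Its log2 level was 8.35 with DAPT and 4.91 with DMSO, and in the DNMAML-ER line 7.53 with OHT and 4.79 with ethanol. In the Notch1-ER line it was 3.53 with OHT and 4.63 with ethanol, a difference of -1.11. The DAPT and DNMAML-ER OHT arrays were far above the other 4, all of which lay under the floor, so the Notch1-ER difference is one between low levels.

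Rank 2, ENSMUSG00000076928, had a level of 8.58 with DAPT and 5.89 with DMSO, and of 7.77 with OHT and 4.93 with ethanol in the DNMAML-ER line. In the Notch1-ER line it was 4.59 with OHT and 5.22 with ethanol, a difference of -0.64 between levels under the floor. Here too the inhibitor arrays stood above the other 4, and the Notch1-ER OHT array was the lowest of the 6.

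The gene at rank 3 was the brightest of these 5, with 12.04 with DAPT and 9.17 with DMSO, and 11.05 with OHT and 8.85 with ethanol in the DNMAML-ER line. Its level was 8.18 with OHT and 8.94 with ethanol in the Notch1-ER line. It was the only one of the 5 with both Notch1-ER arrays at or above the floor, and its Notch1-ER difference was -0.75.

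Rank 4 was ENSMUSG00000095891, which had the lowest Notch1-ER difference of all 166 genes, -1.92. Its level was 6.32 with DAPT and 4.23 with DMSO, and 4.93 with OHT and 2.88 with ethanol in the DNMAML-ER line. In the Notch1-ER line it was 2.30 with OHT and 4.21 with ethanol. It reached the floor on the DAPT array alone.

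Rank 5 was also dim, at 5.89 with DAPT and 3.72 with DMSO, and at 6.01 with OHT and 4.15 with ethanol in the DNMAML-ER line. Its Notch1-ER levels were 3.56 with OHT and 4.25 with ethanol, a difference of -0.68. In all 5 genes the Notch1-ER OHT array was the lowest of the 6 arrays.

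Ranks 6 to 15 behaved differently from one another. The gene at rank 7 was bright, with 9.09 with DAPT and 7.50 with DMSO, and 9.53 with OHT and 7.90 with ethanol in the DNMAML-ER line, but 7.85 with OHT and 7.63 with ethanol in the Notch1-ER line. Its inhibitor arrays stood apart while its Notch1-ER difference was 0.21, on the same side as the inhibitors. Rank 13, with 9.53 with DAPT and 8.16 with DMSO, and 9.36 with OHT and 8.08 with ethanol in the DNMAML-ER line, had 7.44 with OHT and 7.85 with ethanol in the Notch1-ER line. Its difference was -0.41, opposite to the inhibitors. Of the 15 genes, 5 reached the floor on both Notch1-ER arrays, and 6 had a mean level over the 6 arrays under it.

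**Figure D5:**
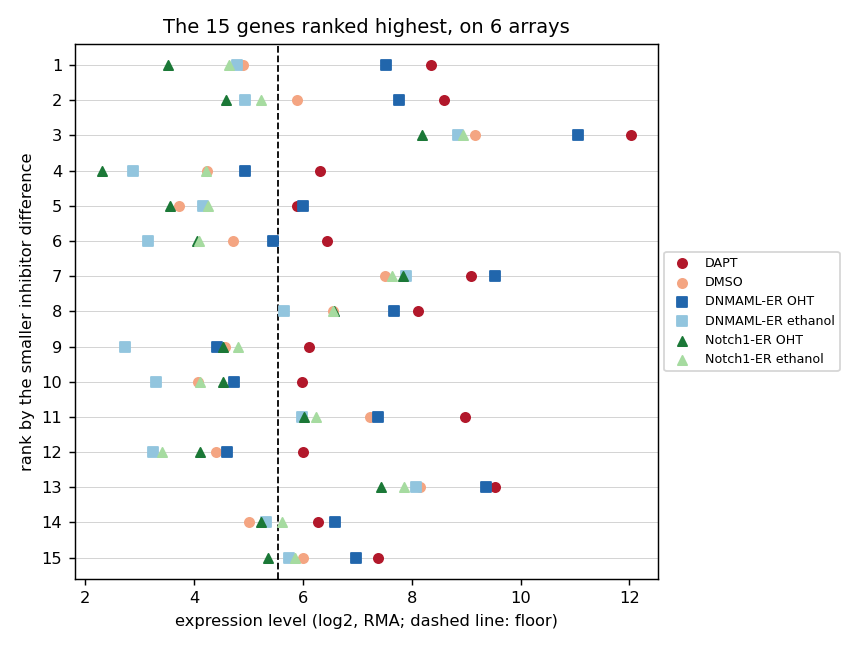
Log2 levels (x) of the 15 genes ranked highest by the smaller inhibitor difference (y, rank 1 at the top) on the 6 arrays, with circles for the parental pair, squares for the DNMAML-ER pair, triangles for the Notch1-ER pair, and the floor as a dashed line. In ranks 1 to 5 the dark triangle, Notch1-ER with OHT, is the lowest point of its row.

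The 16 genes lower by 0.58 or more in the Notch1-ER pair ran from -1.92 to -0.60. They were picked on that pair, so their values there are a description. Of the 16, 6 were among the 33 genes of the 166 with a 2-fold difference under both inhibitors. So were 4 of the 10 genes higher by 0.58 or more in the Notch1-ER pair, so this trait was not particular to the lower genes. The gene with the third lowest difference, ENSMUSG00000024027, stood at rank 120 of 166 in the inhibitor order. Its level was 5.21 with OHT and 6.25 with ethanol in the Notch1-ER line, a difference of -1.04. It was 7.82 with DAPT and 6.20 with DMSO, and 7.23 with OHT and 6.57 with ethanol in the DNMAML-ER line. A large Notch1-ER difference was thus also found in a gene whose DNMAML-ER difference, 0.66, was near the threshold. This gene's Notch1-ER OHT level lay under the floor and its ethanol level above it. The median level of the 16 genes was 5.32 with OHT and 6.14 with ethanol in the Notch1-ER line, and 7 of them reached the floor on both arrays. The brightest of the 16 by mean level was the gene with the fourth lowest difference, -0.99, with 8.75 with OHT and 9.74 with ethanol in the Notch1-ER line. It had 11.07 with OHT and 9.99 with ethanol in the DNMAML-ER line, and 10.07 with DAPT and 9.40 with DMSO. In this gene the Notch1-ER OHT array was the lowest of the 6, and the DNMAML-ER OHT array stood above the DAPT array. The Notch1-ER OHT array was the lowest of the 6 in 15 of the 16 genes. The picking puts it below its ethanol array and keeps the inhibitor arrays from being lowest, so much of this is built in.

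The 10 genes higher by 0.58 or more in the Notch1-ER pair ran from 0.59 to 1.24. They were picked on that pair, and the choosing rule makes them higher in both inhibitor pairs. Their direction in all 3 pairs is therefore a description. The highest of them had a level of 7.43 with OHT and 6.19 with ethanol in the Notch1-ER line. In the DNMAML-ER line it had 7.82 with OHT and 6.15 with ethanol, and in the parental pair 7.94 with DAPT and 7.03 with DMSO. All 3 treated arrays of this gene lay above all 3 vehicle arrays. The picking already puts each treated array at least 0.58 above its own vehicle array, so much of this is built in. The brightest of the 10 by mean level had 11.03 with OHT and 10.39 with ethanol in the Notch1-ER line, 11.79 with OHT and 10.50 with ethanol in the DNMAML-ER line, and 11.36 with DAPT and 10.21 with DMSO. Its treated arrays likewise lay above its vehicle arrays. The median level of the 10 genes in the Notch1-ER line was 7.28 with OHT and 6.29 with ethanol, and 8 of them reached the floor on both arrays.

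The Notch1-ER OHT array was the lowest of the 6 for 59 of the 166 genes (35.5%), where it was the lowest for 13.1% of all genes. The choice of the genes keeps the inhibitor arrays from being lowest, which raises this share for each of the other 4 arrays. The DNMAML-ER ethanol array was the lowest for 54 genes, the DMSO array for 28 and the Notch1-ER ethanol array for 25.

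Across the 166 genes the DAPT and Notch1-ER differences, which share no array, were weakly related, at r = -0.30 (Pearson) and rho = -0.15 (Spearman). For the DNMAML-ER and Notch1-ER differences r was -0.12 and rho 0.10. Over the 161 genes from rank 6 on, r was -0.05 and rho -0.08 for DAPT, and r was 0.20 and rho 0.19 for DNMAML-ER. Ranks 1 to 5 thus gave most of the negative Pearson r with DAPT. Genes are not independent replicates.

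The 61 genes lower by 0.58 or more under both inhibitors give a contrast. With Notch1-ER, the 166 genes had a median difference of -0.04 and the 61 one of 0.26, with 40 of the 61 above 0 and 21 below. Below 0 were 34.4% of the 61, against 52.7% of all genes. Higher by 0.58 or more were 6.02% of the 166 genes and 24.6% of the 61 (15 genes), against 1.53% of all genes. Lower by that size were 9.64% of the 166 and 9.84% of the 61 (6 genes), against 0.815%. The 61 were not recounted with other floors or normalizations. The size of the difference, without its sign, had a median of 0.25 among the 166 and 0.41 among the 61. Differences wider than those of all genes were therefore not particular to the 166. The genes lower under both inhibitors thus leaned to the other side with Notch1-ER, which the 166 genes as a group did not, and with 1 array per condition the difference between the sets was not tested.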

How the data were processed

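The authors deposited 1 table of log2 expression values, and RMA is the tool named for them, per the submitters' processing notes. The version of RMA, the genome build, the array model and the annotation used were all not given in the sources used here. RMA equalises the arrays' probe distributions, so a change in total RNA per cell is not seen. The 6 array medians lay between 5.43 and 5.61 over 22414 probe sets, with 0 missing values. Each probe set carries 1 Ensembl ID and is called a gene. The number of arrays limits the precision.

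Differences were taken as treated minus vehicle on the log2 scale, with Python 3.11.15 and pandas 2.3.3. The floor of 5.54 is the median over probe sets of the mean level. With 1 array per condition there is no test, and genes were counted by size. Alternatives were a second quantile normalization and cyclic loess (R 4.3.3, limma 3.58.1), centred differences, other floors, and 2-fold. The genes and lists were chosen with earlier results of these data known. By the naming rule, values on every array were due for the 15 genes ranked highest by the smaller inhibitor difference, the 8 lowest and 8 highest in the Notch1-ER pair, and the genes beside the thresholds. Without names, they are given in full for some of these, picked for rank or brightness after their values were seen, and otherwise as ranges. The role and marker lists and promoter motifs need gene symbols and were not analysed here. IDs were printed for the first 2 ranks and for the 2 lowest in the Notch1-ER pair beyond them.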

Additional observations from a re-analysis of the deposited data

Results flagged for a closer look

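Of the 166 genes, all higher with OHT than with ethanol in the DNMAML-ER line by choice, 16 (9.64%) were lower with OHT by 0.58 or more in the Notch1-ER line, against 0.815% of the 12145 genes that reach the floor. Another 10 (6.02%) were higher with OHT by that size in the Notch1-ER line too, against 1.53%. Each line has 1 array per condition, so how far the lines differ was not tested.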

How the results depend on the processing

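The 166 genes became 149 with quantile normalization, 164 with cyclic loess, 185 with centred differences, 186 without a floor and 147 with the floor on the mean. Of these, 141 were shared with the 166 under quantile normalization and 154 under cyclic loess. The median Notch1-ER difference was 0.015 with cyclic loess, against -0.04 as deposited, so its sign depends on the scaling. The cause was not tested. With a 2-fold difference in both inhibitor pairs 33 genes remained, by construction, with a median of -0.169, 6 lower and 4 higher by 0.58 or more, that is 18.2% and 12.1%. Under the other alternatives the number lower ran from 11 to 17 and the number higher from 8 to 12. An unrounded floor, chosen after seeing the data, gave the same 166 genes, and a floor on the mean of the 2 Notch1-ER arrays, also added then, left 138. Under each of the 2 normalizations, also read after seeing the data, 5 of the 15 genes ranked highest were lower by 0.58 or more. These 15 were kept as ranked on the deposited values. Centring left each Notch1-ER difference as it was, because their median over all 22414 genes was 0. Its count of 5 was therefore fixed in advance. Without genes reaching the floor only on an inhibitor array, 2 of the remaining 8 were lower. Rank 2 is among them, with both Notch1-ER arrays under the floor. The 4 genes printed by ID kept their direction under the 2 normalizations, while centring could not change their values. Of these, 2 were printed for being lowest in the Notch1-ER pair, and the same arrays were rescaled. Their kept direction is therefore a description and no separate support. No replicate could be left out with 1 array per condition, and no paired analysis was possible because no group has a second array. Signal over background was not analysed here, and 19 of the 166 genes had a mean level under the floor.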
